A study of Mus musculus with 17 samples.

Results

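Keratins are the proteins of the intermediate filaments of epithelial cells. A keratin filament forms only from pairs, each made of 1 acidic type I keratin and 1 basic type II keratin, and which pairs a cell makes follows its epithelium: Krt8 with Krt18 in simple epithelia, Krt5 with Krt14 in the basal layer of stratified epithelia, Krt1 with Krt10 in the layers above it, and a large set of its own in the hair follicle. Fibroblasts rely on vimentin instead, and the passage of fibroblasts through an epithelial state is a known early step of reprogramming to pluripotency. The keratin genes were taken as all genes of the deposited table whose name is Krt followed by a number alone, which gave 47 of 38734 genes. By textbook site of expression 4 are keratins of simple epithelia (Krt7, Krt8, Krt18 and Krt19), 17 of stratified epithelia, 9 of the inner root sheath and companion layer of the hair follicle, 12 of the hair shaft, and 5 were kept as other keratins.

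RNA of mouse cells was measured in 17 libraries while embryonic fibroblasts (MEF) were turned into induced pluripotent stem cells (iPSC). All cells carried the OSKM cassette, which encodes Oct4 (Pou5f1), Sox2, Klf4 and cMyc and is switched on by doxycycline, given at 1 ug/ml. The genotypes were miR-203 WT; OSKM (WT), miR-203 KO; OSKM (KO) and ColA1_miR203; Rosa26rtTA; OSKM (KI), in which doxycycline also induces miR-203, a microRNA known for its abundance in the suprabasal layers of skin. The labels name the transactivator Rosa26rtTA for KI only. WT, KO and KI cells were sampled as MEF and at days 0, 4, 6 and 7, and WT and KO also as iPSC, with 1 library for each combination, and every label, those of MEF included, gives a doxycycline treatment of 2 weeks. No combination had a second library, and nothing in the labels tells how many embryos or clones a library holds, so single values carry no error.

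Values are FPKM, fragments scaled by transcript length and by the mapped total, with no further scaling between libraries. The upper quartile of genes with a mean of at least 1 FPKM ran from 21.0 in KI at day 7 to 30.5 in KO at day 7. Differences between libraries therefore hold for FPKM as deposited. The sum of FPKM per library ran from 510501 to 690770, and the number of reads is unknown. RNA of the miR-203 gene was listed at 0 in all WT and KO libraries, which leaves the deletion unchecked, and stood at 185 to 7903 FPKM in KI. From day 4 on Pou5f1 and Sox2 were above their MEF and day 0 values in WT and KO, but to unlike levels. Pou5f1 was at 266, 37.4 and 85.3 FPKM in WT at days 4, 6 and 7 and at 255, 852 and 954 FPKM in KO. Sox2 was at 19.0, 2.26 and 3.63 FPKM in WT and at 29.1, 31.5 and 37.9 FPKM in KO. Factor RNA was thus higher in KO than in WT at days 6 and 7. The part of this difference in the keratin values of WT and KO was not tested. In the KI libraries of days 4, 6 and 7 Pou5f1 stayed at 0.491 to 0.851 FPKM and Sox2 at or below 0.167 FPKM, so the miR-203 transgene and the lack of factor RNA cannot be told apart in KI. Sex-chromosome RNA set 3 WT libraries apart, those of MEF, day 4 and iPSC, with Ddx3y at 0.0179, 2.74 and 1.51 FPKM against 14.5 to 20.02 in all other libraries. In WT the steps from day 0 to day 4 and from day 4 to day 6 thus coincide with this difference. Its part in the WT values was not tested. In bulk RNA fewer cells of a type and less RNA per cell cannot be told apart.

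The sequences that bear on the results are those of miR-203 and of the starts of 3 keratin genes: Krt8 and Krt18, a partner pair of neighbouring genes whose RNA parted at day 4, and Krt42, the leading keratin of iPSC. The mature microRNA, at chr12:112130927-112130948 on the plus strand of GRCm38.p6 in RefSeq, is shown with its seed (bases 2 to 8) in capitals.
mmu-miR-203-3p: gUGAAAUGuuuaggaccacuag

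The 7-base match to that seed, CATTTCA, was searched for in 3′ untranslated regions of GENCODE M21, using for each gene its longest one. It was present in 4 of the 45 keratins with such a region (8.89%) and in 3538 of 21193 genes (16.7%). The 4 were Krt1, Krt35, Krt82 and Krt83, shown with the match in capitals and the bases around it.
Krt1: caccaacatgaCATTTCAaagaggacttc
Krt35: tgacgcctcatCATTTCAacgggctccag
Krt82: gcaaaaggctcCATTTCActttcctcaca
Krt83: aagcctttgcaCATTTCAaagacccccat
Krt82 was listed at 0 in every library, Krt35 and Krt83 stayed below 1 FPKM, and Krt1 reached 1.12 FPKM. None of the 12 keratins that reached 5 FPKM held the 7 letters, which describes these annotated regions only.

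Promoter windows of RefSeq, from 250 bases before to 50 bases after each start on GRCm38.p6, matched 34 of the 47 keratins in 35 windows. Both strands were searched for 6 motifs, and matches are in capitals. A TATA box was sought as TATAAA and a GC box as GGGCGG. The motif of AP-1 factors was sought as TGANTCA and the octamer that Pou5f1 binds as ATGCAAAT. The E-box of Myc was sought as CACGTG, and another E-box, which Snail and Zeb factors can bind, as CAGGTG.
Krt8, chr15:102004293-102004592, minus strand: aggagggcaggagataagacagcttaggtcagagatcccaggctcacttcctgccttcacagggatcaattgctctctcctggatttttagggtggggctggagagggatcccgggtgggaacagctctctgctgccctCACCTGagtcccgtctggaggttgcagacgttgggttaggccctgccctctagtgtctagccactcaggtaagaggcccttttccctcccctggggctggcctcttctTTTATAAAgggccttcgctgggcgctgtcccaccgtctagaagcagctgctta
Krt18, chr15:102027966-102028265, plus strand: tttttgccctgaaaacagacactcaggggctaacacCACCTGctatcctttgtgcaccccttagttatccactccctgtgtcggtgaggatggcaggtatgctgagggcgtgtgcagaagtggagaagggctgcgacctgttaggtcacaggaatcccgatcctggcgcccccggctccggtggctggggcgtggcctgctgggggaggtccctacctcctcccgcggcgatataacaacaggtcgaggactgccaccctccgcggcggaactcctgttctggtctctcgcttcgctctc
Krt42, chr11:100269902-100270201, minus strand: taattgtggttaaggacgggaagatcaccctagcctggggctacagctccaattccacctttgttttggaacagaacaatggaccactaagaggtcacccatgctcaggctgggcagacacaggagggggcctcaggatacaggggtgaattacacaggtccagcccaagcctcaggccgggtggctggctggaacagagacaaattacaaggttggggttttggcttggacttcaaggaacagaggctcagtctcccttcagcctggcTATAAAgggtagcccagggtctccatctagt
The Krt8 window held TATAAA on both strands, overlapping each other, and CAGGTG on the opposite strand. The 2 TATAAA matches begin 3 and 1 bases before the RefSeq start and run across it. CAGGTG alone was found in the Krt18 window, also on the opposite strand, and TATAAA alone in the Krt42 window, 19 bases after the start. In 3 windows, those of Krt7 and Krt14 and 1 of the 2 of Krt13, the RefSeq start lies 1360, 1518 and 989 bases inside the gene as GENCODE M21 draws it, so these windows are not the start of the longest gene model, and none of them is printed. In the other windows the starts differ by at most 140 bases, the difference of the Krt8 window printed here. TATAAA was in 18 of the 35 keratin windows and in 13.6% of all 32851 windows, and CAGGTG in 14 and in 20.2%. GGGCGG was in 2 keratin windows against 35.7% of all, those of Krt7, with 4 matches in the window inside the gene, and Krt75. TGANTCA was in 2 windows against 7.81%, both of Krt13 (1 inside the gene), and CACGTG in 3 against 7.15% (Krt23, Krt75 and Krt78). ATGCAAAT was in no keratin window and in 1.74% of all windows. A match describes the letters, not a bound site.

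Most keratin genes were silent or nearly so in all libraries. Of the 47, 7 were listed at 0 throughout, 26 had a highest value above 0 and below 1 FPKM, 2 had a highest value between 1 and 5 FPKM, and 12 reached 5 FPKM. All 4 simple epithelial keratins reached 5 FPKM, as did 5 of the 17 stratified ones (Krt13, Krt14, Krt16, Krt17 and Krt80). Among hair keratins it was 0 of 9 in the inner root sheath and companion layer, where the highest value was 0.199 FPKM, and 1 of 12 in the shaft (Krt84), where the others stayed at or below 0.116 FPKM and 6 were listed at 0. Krt20 and Krt42 were the 2 of 5 other keratins that reached it. The 2 genes between the limits, Krt1 at 1.12 FPKM and Krt10 at 1.09 FPKM, the partners of the suprabasal epidermis, were both highest in KO at day 7, and Krt10 was nearly level over all libraries (lowest 0.429 FPKM). Of the 12 keratins that reached 5 FPKM, 8 had their highest value in the KO library of day 7.

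**Figure D1:**
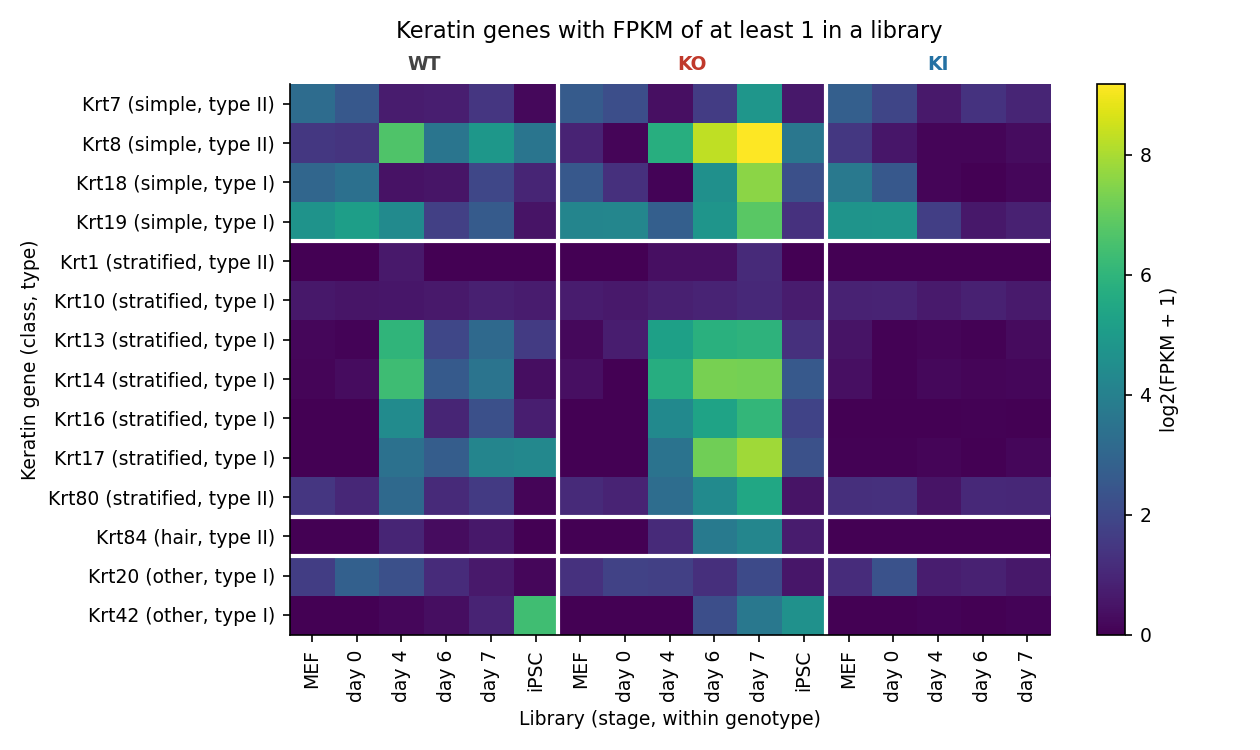
Keratin genes with at least 1 FPKM in a library (rows, by class and type) in the 17 libraries (columns, by genotype and stage), coloured by log2(FPKM + 1). Krt8 at KO day 7 is the brightest cell (579 FPKM), the KI columns of days 4, 6 and 7 are dark in every row, and Krt42 is bright in the iPSC columns (82.4 FPKM in WT and 23.8 FPKM in KO).

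The genes lie in the mouse keratin clusters: 25 on chromosome 11, which holds type I genes, and 22 on chromosome 15, which holds type II genes and, as the known exception, the type I gene Krt18. Krt8 (GRCm38 chr15:101996698-102004482, minus strand) and Krt18 (chr15:102028180-102032027, plus strand) are 23697 bases apart. Near-identical copies make some values uncertain, because reads could be placed on either copy. Of all 50-base stretches of the transcript, 37.6% in Krt16 also occur in other genes (Gm11597 and Krt14 above all), 26.9% in Krt8 (the pseudogene Krt8-ps), 14.4% in Krt14 (Krt16 and Krt17) and 3.99% in Krt17, against 0 in Krt7, Krt13, Krt19, Krt20, Krt80 and Krt84.

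Before day 4 the keratin RNA was mostly of the simple epithelial kind, and which cells of these bulk libraries made it was not tested. At the MEF stage and day 0 the 4 simple keratins made up 82.6% to 91.4% of the summed keratin FPKM, which was 27.5 to 58.4 FPKM per library. At day 4 the sum was 309 FPKM in WT and 190 FPKM in KO, and stratified keratins held 59.4% and 67.0% of it. In KO the sum went on to 799 FPKM at day 6 and 1504 FPKM at day 7, which is 0.237% of all FPKM of that library, while in WT it was 32.2 and 82.5 FPKM. The KI libraries of days 4, 6 and 7 held 4.83 to 5.25 FPKM of keratin RNA, less than every other library. At day 7 in KO the simple keratins (912 FPKM) again exceeded the stratified ones (558 FPKM). In iPSC the sum was 117 FPKM in WT and 56.7 FPKM in KO, and other keratins, that is Krt42, made up 70.3% and 43.0%.

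**Figure D2:**
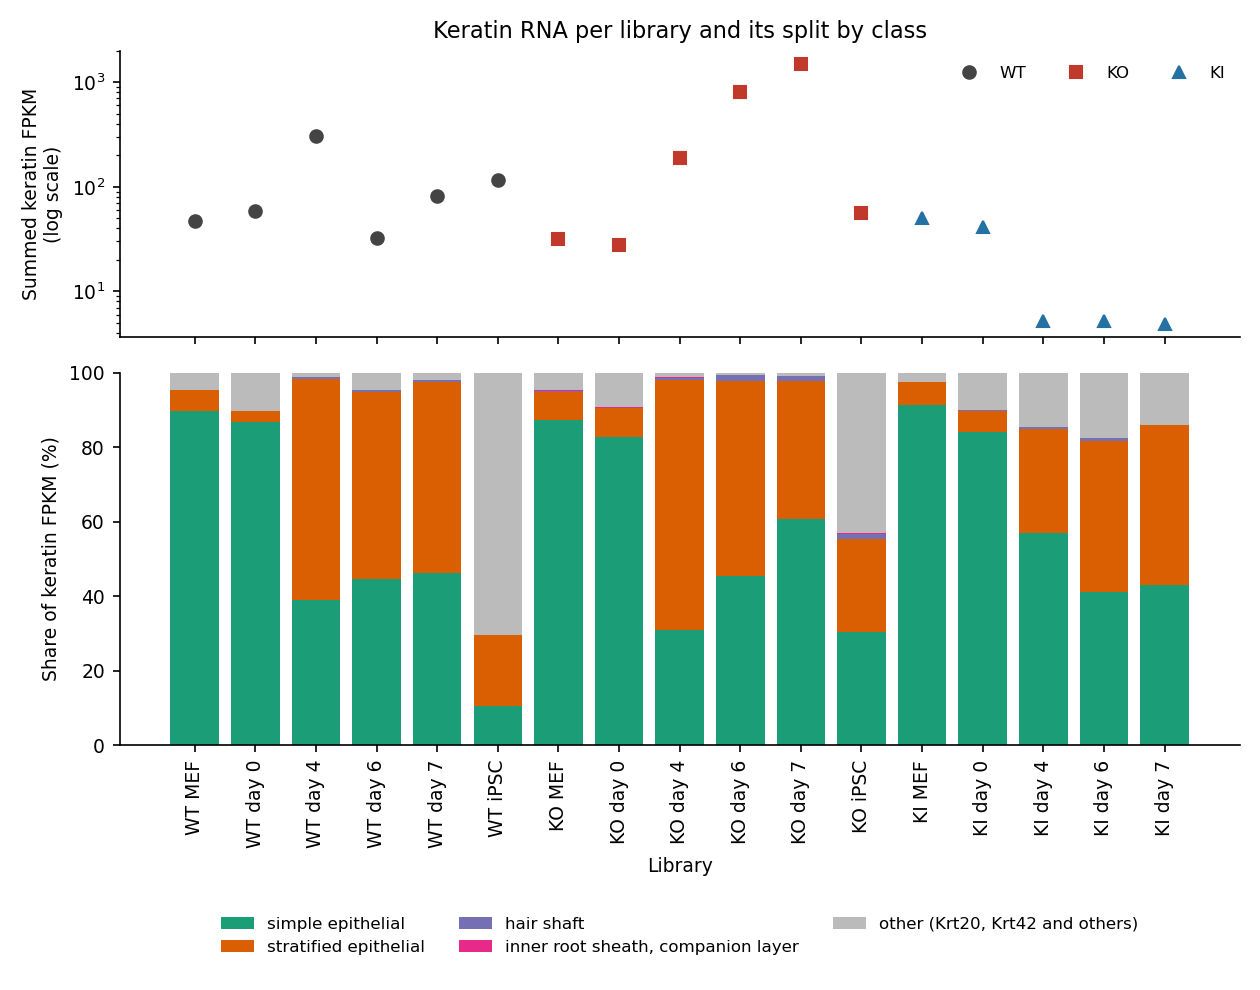
Summed FPKM of the 47 keratins per library on a log scale (top, points by genotype) and its split into classes in percent (bottom, bars). Simple keratins fill 82.6% to 91.4% of the bars of MEF and day 0, stratified keratins 59.4% and 67.0% at day 4 in WT and KO, and the sum is lowest in the KI libraries of days 4, 6 and 7 (4.83 to 5.25 FPKM).

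Krt8, the type II keratin with which simple epithelia begin in the embryo, had the widest range. In WT its FPKM was 1.81 in MEF, 1.58 at day 0, 99.5 at day 4, 10.9 at day 6, 28.3 at day 7 and 10.97 in iPSC. KO libraries had 0.880, 0.0810, 52.4, 312, 579 and 11.5 FPKM of Krt8 at the same stages. KI libraries had 1.82 FPKM in MEF, 0.455 at day 0, and 0.0816, 0.0824 and 0.231 FPKM at days 4, 6 and 7. Krt8 was thus high in WT and KO from day 4 on, 28.5-fold higher in KO than in WT at day 6 and 20.5-fold higher at day 7, and lower in the late KI libraries than in KI MEF. At KO day 7 it ranked 153 among all genes by FPKM.

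Krt18, the type I partner of Krt8, had another course. WT libraries had 7.20 FPKM in MEF, 9.48 at day 0, 0.364 at day 4, 0.437 at day 6, 2.91 at day 7 and 0.924 in iPSC. In KO Krt18 stood at 4.78, 1.41, 0.0673, 23.2, 193 and 3.69 FPKM. In KI it was 12.03 FPKM in MEF and 4.72 at day 0, and 0.0994, 0 and 0.109 FPKM at days 4, 6 and 7. All 3 genotypes had less Krt18 at day 4 than at day 0, and KO had 66.2-fold more than WT at day 7. The ratio of Krt8 to Krt18 in FPKM was 0.0576 to 0.252 in the libraries of MEF and day 0, 273 in WT and 779 in KO at day 4, and 3.003 at KO day 7. Each day 4 ratio has a Krt18 value below 1 FPKM in its denominator.

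Krt19, the smallest type I keratin, was the leading keratin of the MEF and day 0 libraries. Its FPKM in WT was 25.2 in MEF, 34.7 at day 0, 19.9 at day 4, 2.30 at day 6, 5.20 at day 7 and 0.382 in iPSC. KO had 16.99, 17.6, 5.87, 26.3, 112 and 1.46 FPKM, and KI 26.0, 26.4, 2.24, 0.515 and 0.779 FPKM from MEF to day 7. KO was lower than WT and KI in MEF and at day 0, with 17.6 against 34.7 and 26.4 FPKM at day 0. The KI values of days 6 and 7 were below every WT and KO value of those days. Krt7, a type II keratin of ducts and other simple epithelia, was at 8.37, 4.82, 0.611, 0.692, 1.75 and 0.140 FPKM in WT from MEF to iPSC. It was at 5.22, 3.62, 0.307, 2.07, 27.5 and 0.506 FPKM in KO, and at 5.89, 2.74, 0.564, 1.55 and 0.954 FPKM in KI. Krt7 at KO day 7 exceeded its day 6 value 13.3-fold and was the single late value above the values of MEF and day 0.

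The stratified keratins Krt13, Krt14, Krt16 and Krt17 had RNA above 1 FPKM from day 4 on in WT and KO, apart from some WT values of Krt14 and Krt16, and in no KI library. Krt14, the type I keratin of basal cells, was at 0.0827 FPKM in WT MEF, 0.225 at day 0, 80.2 at day 4, 5.09 at day 6, 10.6 at day 7 and 0.282 in iPSC. KO values were 0.310, 0, 51.8, 157, 154 and 4.85 FPKM, and KI values 0.286, 0.0424, 0.142, 0.0928 and 0.109 FPKM. WT and KO were close at day 4, and at day 6 KO was 30.8-fold higher. Krt5, the type II partner of Krt14 in skin, stayed at or below 0.922 FPKM in every library, and the ratio of Krt14 to Krt5 reached 1050 in WT at day 4. Trp63, the master regulator of stratified epithelia, was at or below 1.61 FPKM.

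Krt13, the type I keratin of the lining of mouth and oesophagus, was at 0.105, 0.0629, 63.5, 2.92, 7.85 and 2.05 FPKM in WT from MEF to iPSC. KO libraries held 0.160, 0.672, 36.1, 55.2, 59.6 and 1.44 FPKM and KI libraries 0.385, 0.0302, 0.0965, 0.0324 and 0.191 FPKM. KO was level from day 6 to day 7, while WT was highest at day 4, in a library of low Ddx3y. Krt16, a type I keratin of wounded and fast-dividing epidermis, was listed at 0 in MEF and at day 0 in all 3 genotypes. It then stood at 20.7, 0.920, 3.74 and 0.692 FPKM in WT at days 4, 6 and 7 and in iPSC, at 19.3, 39.4, 66.8 and 2.62 FPKM in KO, and at 0, 0.0363 and 0 FPKM in KI. WT and KO values of day 4 differed little, and the KO value was 17.9-fold the WT value at day 7.

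Krt17, a type I keratin of skin appendages that injury induces, was listed at 0 in MEF and at day 0 of WT and KO. WT then had 9.82, 5.46 and 17.2 FPKM at days 4, 6 and 7 and 18.6 FPKM in iPSC, and KO 10.2, 145, 231 and 3.90 FPKM. KI values were 0.0324, 0.0305, 0.0954, 0 and 0.105 FPKM. Its WT value in iPSC was as high as the WT values before it, unlike those of Krt13, Krt14, Krt16 and Krt80. Krt80, a type II keratin of many differentiating epithelia, was present before day 4, with 1.77 FPKM in WT MEF and 1.02 at day 0, and then 7.77, 1.12, 1.97 and 0.0989 FPKM. KO had 1.14, 0.871, 8.65, 19.8, 42.8 and 0.411 FPKM and KI 1.38, 1.39, 0.388, 1.10 and 1.05 FPKM. Its KI values of days 6 and 7 were close to those of KI MEF.

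Krt84, a type II keratin known from nail and tongue as well as hair, was the hair keratin with the highest level. In KO it was listed at 0 in MEF and at day 0 and stood at 1.13, 12.6 and 17.8 FPKM at days 4, 6 and 7 and at 0.628 FPKM in iPSC. WT values were 0.0225, 0, 0.944, 0.225, 0.496 and 0 FPKM, and all 5 KI libraries were listed at 0. Only the KO libraries of days 6 and 7 passed 5 FPKM. Krt20, a type I keratin of gut and urothelium, was at 2.17, 6.03, 3.71, 1.17, 0.547 and 0.113 FPKM in WT. KO had 1.47, 2.53, 2.35, 1.34, 3.21 and 0.486 FPKM, and KI 1.24, 3.99, 0.655, 0.801 and 0.514 FPKM. Krt20 was highest at day 0 in WT and KI.

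Krt42, a type I keratin known from the mouse nail, had another order. WT values were 0, 0, 0.114, 0.257 and 0.866 FPKM up to day 7 and 82.4 FPKM in iPSC. KO values were 0, 0, 0, 3.64, 11.6 and 23.8 FPKM, and KI values 0, 0, 0.0561, 0 and 0.0616 FPKM. Among the 12 keratins only Krt42 had its highest value in iPSC in both WT and KO. Its gene lies 1852 bases from Krt17, with which it shares 0.268% of its 50-base stretches.

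**Figure D3:**
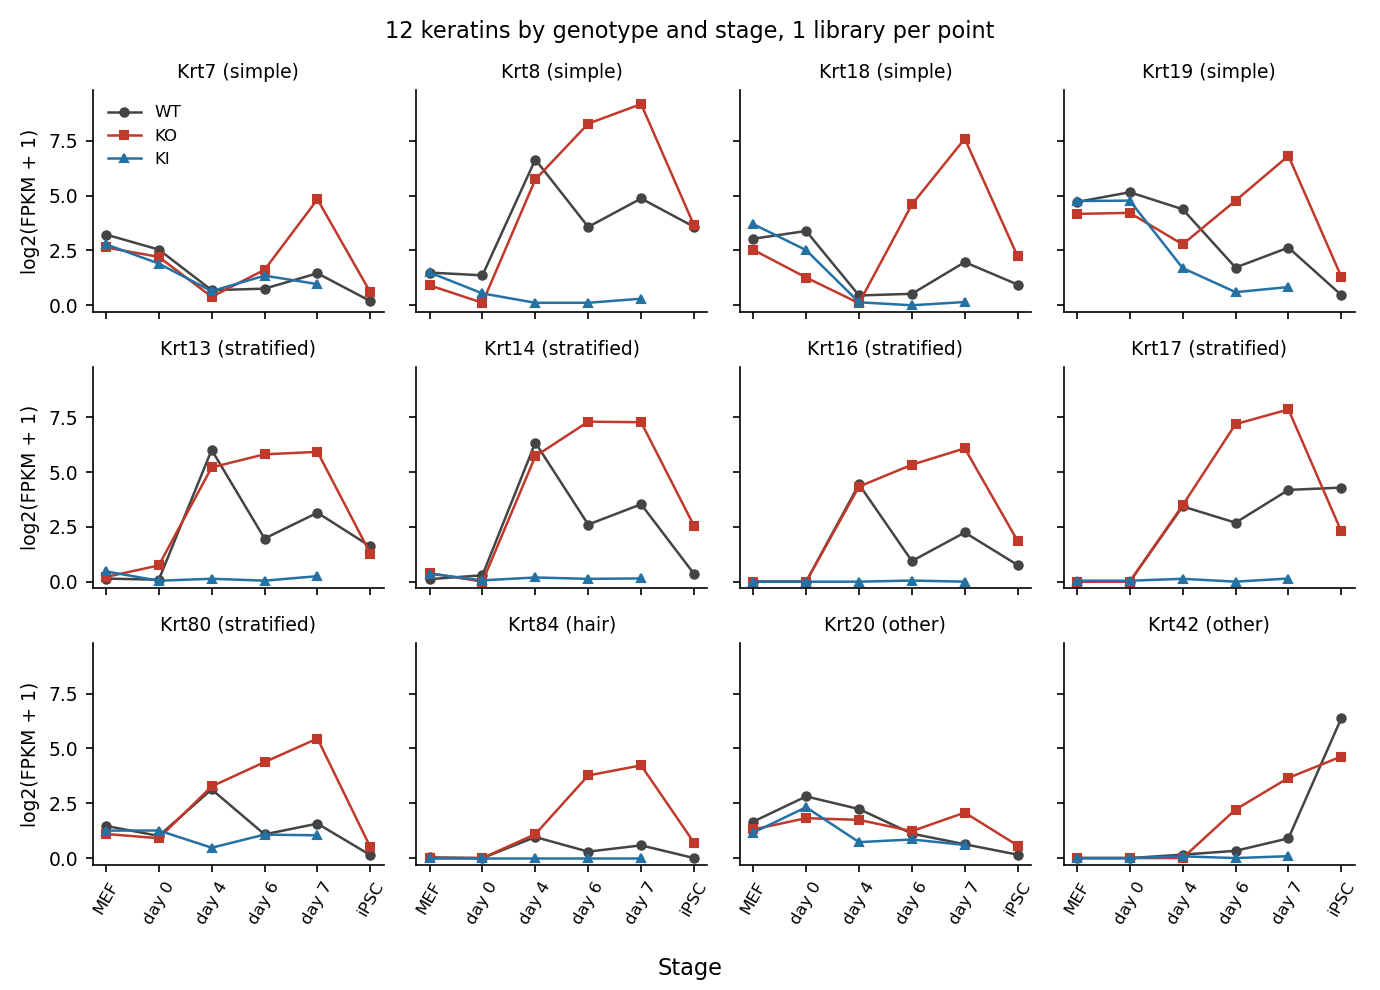
log2(FPKM + 1) of the 12 keratins that reached 5 FPKM, by stage (horizontal axis) and genotype (colour and symbol), 1 library per point. WT and KO lie together at day 4 for Krt8, Krt13, Krt14, Krt16, Krt17 and Krt80 and apart at days 6 and 7, KI lies near 0 from day 4 on for most genes, and Krt42 is highest in iPSC.

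Type I keratins outweighed type II keratins in FPKM in all libraries but KI day 6. The ratio of type I to type II was 2.90 to 7.91 in MEF and day 0, 1.82 in WT and 2.01 in KO at day 4, and 1.24 at KO day 7, and it reached 9.41 in WT iPSC. Krt6a, the type II partner of Krt16 and Krt17, has a letter in its name and is not among the 47. It stood at 2.29 and 3.12 FPKM in WT and KO at day 4, and at 15.9 and 23.3 FPKM in KO at days 6 and 7, with 45.5% of its 50-base stretches also in other genes. It was below its partner Krt16 in each of these libraries.

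**Figure D4:**
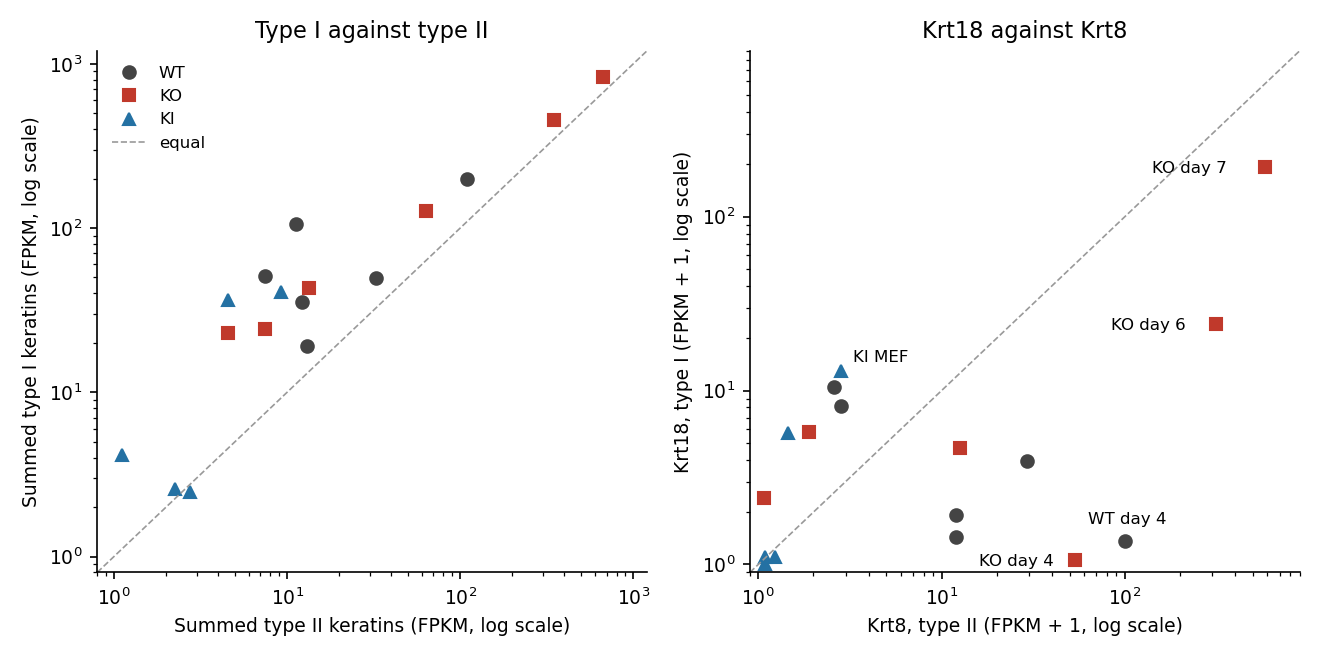
Summed FPKM of type I against type II keratins (left) and Krt18 against Krt8 as FPKM + 1 (right), log scales, 1 point per library by genotype, dashed line at equal values. Libraries lie above the line on the left except KI day 6, and on the right those of MEF and day 0 lie above the line while WT and KO of day 4 lie far below it (ratios of Krt8 to Krt18 of 273 and 779).

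Only the 12 keratins with a mean of at least 1 FPKM, the same 12 that reached 5 FPKM, could be tested, and 35 did not pass that filter. Several passed only through the libraries in which they are high, so counts and medians over the 12 describe them and support nothing about all 47. Differences were tested on log2(FPKM + 1), which understates the change of low genes, with limma and Benjamini-Hochberg adjustment over all genes, and called at an adjusted p under 0.05. For stages the genotypes stood in as the samples, so a keratin that differs between genotypes late has a large error. At day 4 against day 0, 0 of the 12 were called, against 22.3% of all genes in either direction, and 4 had an unadjusted p under 0.05. The difference was 3.49 ± 1.25 (SE) for Krt13 (adjusted p = 0.0678), 3.97 ± 1.46 for Krt14 (0.0749) and 3.49 ± 1.73 for Krt8 (0.181). The median over the 12 was 0.96 and over all genes 0.0072, and without the late KI libraries 4 keratins were called higher (Krt8, Krt13, Krt14 and Krt16), as were 7.4% of all genes. Without the KO libraries 2 were called lower (Krt7 and Krt18), as were 11.5% of all genes.

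Between day 7 and day 4, 0 of the 12 were called by limma, beside 0.0211% of all genes, and 1 had an unadjusted p under 0.05. That was Krt7, at 1.85 ± 0.70 (adjusted p = 0.588), and Krt18 was at 3.01 ± 1.48 (adjusted p = 0.727). For day 7 against MEF it was 0 of 12 as well, beside 21.4% of all genes, with 4 at an unadjusted p under 0.05. Krt17 came nearest, at 4.05 ± 1.47 (adjusted p = 0.0729). Leaving out the late KI libraries gave 5 keratins called higher at day 7 than in MEF (Krt8, Krt13, Krt14, Krt16 and Krt17), as were 6.16% of all genes, and leaving out the KO libraries gave 3 called lower (Krt7, Krt18 and Krt19), as were 18.6% of all genes.

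The iPSC stage, with 2 libraries, gave the calls between stages. Against day 7 Krt42 rose by 3.73 ± 0.86 (adjusted p = 0.00492), the 1 keratin called higher, where 25.6% of all genes were called higher. Krt7 fell by 2.199 ± 0.80 (adjusted p = 0.0400) and Krt80 fell by 2.81 ± 1.05 (adjusted p = 0.0444), the 2 keratins called lower, where 24.1% of all genes were. Against MEF Krt42 rose by 5.28 ± 0.86 (adjusted p = 0.00058), again the 1 keratin called higher (20.5% of all genes), and Krt19 fell by 4.20 ± 1.32 (adjusted p = 0.0246) and Krt7 fell by 2.66 ± 0.80 (adjusted p = 0.0199), the 2 called lower (21.4% of all genes). The shares of keratins called were thus near or below those of all genes. With the 3 WT libraries of low Ddx3y left out together, WT iPSC among them, no keratin was called against day 7, and against MEF Krt42 alone was, at 4.06.

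Across MEF and days 0 to 7, no keratin passed the test between genotypes. KO against WT gave 0 of 12 with limma (0.34% of all genes, 0 with an unadjusted p under 0.05), where Krt84 had the smallest p, at 1.45 ± 0.67 (adjusted p = 0.400). KI against WT gave 0 of 12 (0.397% of all genes, 0 unadjusted), with Krt8 at -3.08 ± 1.40 (adjusted p = 0.543). KI against KO gave 0 of 12 (1.8% of all genes, 7 unadjusted), with Krt13 at -3.39 ± 0.99 (adjusted p = 0.0970). The stages of a genotype are not replicates, and a difference that opens at day 4 is diluted by the libraries before it.

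The change of the genotype difference from MEF and day 0 to days 4, 6 and 7, here the late change, was therefore tested as an interaction. In KI against KO 6 of the 12 keratins were called lower, beside 8.67% of all genes. The late change was -8.07 ± 1.46 for Krt8 (adjusted p = 0.0346), -6.63 ± 1.33 for Krt14 (0.0349) and -6.13 ± 1.28 for Krt17 (0.0359). It was -5.28 ± 1.22 for Krt13 (adjusted p = 0.0405), -5.24 ± 1.19 for Krt16 (0.0399) and -3.76 ± 0.98 for Krt80 (0.0480). Of the simple keratins only Krt8 was among them, and Krt18, at -5.21 ± 1.89 (adjusted p = 0.0928), was not called. The median was -4.77 over the 12 and -0.27 over all genes. All 6 calls were lost when the libraries of MEF, of day 0, of day 6 or of day 7 were left out, or when no filter on low values was set, and calls over all genes fell with them, from 1558 to 69, 74, 7, 14 and 48 in that order. Without the libraries of day 4, 10 of the 12 keratins were called lower, and so were 37.8% of all genes.

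In KO against WT the late change gave 0 of 12 calls with limma (0.0795% of all genes), with 4 at an unadjusted p under 0.05. Krt80 had 2.68 ± 0.98 (adjusted p = 0.176), Krt8 3.62 ± 1.46 (adjusted p = 0.203) and Krt18 4.43 ± 1.89 (adjusted p = 0.218). Without the libraries of day 4, at which WT and KO were close, 10 of the 12 were called higher, and so were 32.6% of all genes. Leaving out the WT libraries of low Ddx3y gave 4 called higher (Krt13, Krt14, Krt16 and Krt80), beside 5.92% of all genes. In KI against WT it was 0 of 12 (0.0723% of all genes), with 4 at an unadjusted p under 0.05, among them Krt8 at -4.45 ± 1.46 (adjusted p = 0.548) and Krt13 at -3.71 ± 1.22 (adjusted p = 0.548). Without the libraries of day 4, Krt8, Krt14 and Krt17 were called lower in KI, beside 0.837% of all genes. The 3 late comparisons share libraries in pairs, so they are not independent of each other.

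**Figure D5:**
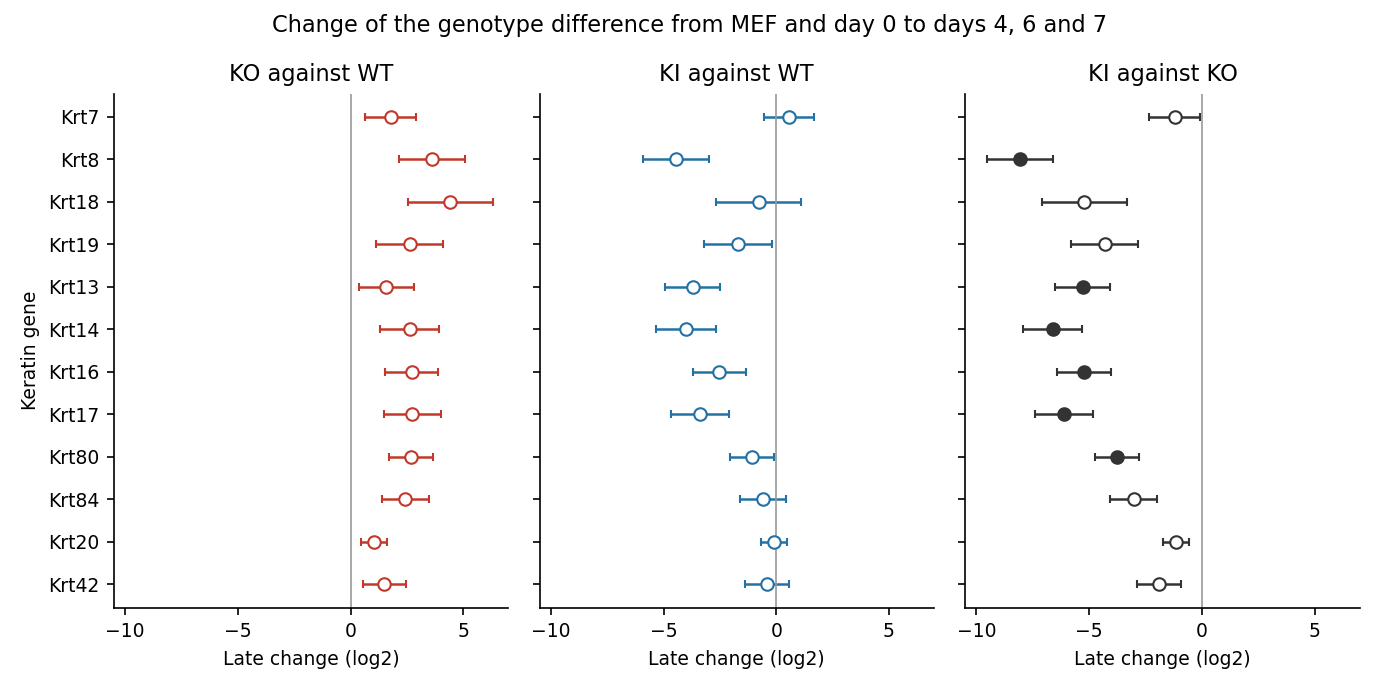
Late change of the 12 tested keratins (log2, horizontal axis) between genotypes, from limma over 15 libraries, with bars of 1 standard error, filled points for an adjusted p under 0.05. Filled points occur in KI against KO alone, for Krt8 (-8.07), Krt14, Krt17, Krt13, Krt16 and Krt80 (-3.76).

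Single libraries of the same day were compared without a test, counting a difference of at least 1 (log2) where a library of the pair had at least 5 FPKM. At day 4 KO was lower than WT in 1 of 7 keratins (Krt19, -1.60), beside 5.36% of all genes compared, and KI was lower in 7 of 7 (19.9% of all genes). At day 6 KO was higher than WT in 9 of 9 (17.5%) and KI lower in 3 of 3 (4.95%), namely Krt8, Krt14 and Krt17. At day 7 KO was higher in 11 of 11 (21.8%) and KI lower in 5 of 5 (6.97%). KO and KI were both set against the same WT library of each day. A gene had to be high in a library of the pair to be counted, and the genes so counted are not all 47.

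Markers of other cell types differed between genotypes late in the course, and those of macrophages did so before day 4 as well. The summed FPKM of 7 epithelial markers, Epcam and Cdh1 (E-cadherin) among them, was 0.968 to 3.66 in MEF and day 0, 9.73 to 33.2 in WT at days 4 to 7, 29.2 in KO at day 4, 274 to 648 in KO at days 6 and 7, and 2.03 to 3.47 in KI at days 4 to 7. All 7 had at least 1 FPKM in KO at days 6 and 7. The 9 keratinocyte markers that are not keratins summed to 8.81 to 22.3 FPKM in MEF and day 0, where Dsg3 was listed at 0. The sum was 62.2 to 485 in WT at days 4 to 7, 282 in KO at day 4 and 909 to 1026 in KO at days 6 and 7. In late KI it was 1.63 to 3.26, and 0 of the 9 had 1 FPKM. At WT day 4 Lgals7 (323 FPKM) and Krtdap (136 FPKM) made up most of it, and 4 of the 9 had at least 1 FPKM. In KO at days 6 and 7, 7 of the 9 did, while Ivl was at 0.0901 and 0.810 FPKM and Lor at 0.644 and 0.532 FPKM. The 6 mesothelial markers differed from each other between KO and WT: Msln made up most of the sum (274 FPKM of 288 in KO at day 6, against 10.9 FPKM in WT), while Wt1 was at 0.218 FPKM in KO and 2.08 FPKM in WT at day 6 and Lrrn4 at 0.336 and 2.98 FPKM. In MEF and day 0 the 6 summed to 11.3 to 48.5 FPKM, with 2 to 6 of them at 1 FPKM or more, and in late KI to 2.49 to 3.72 FPKM. Macrophage markers, 7 genes led by Lyz2, summed to 93.3, 12.4 and 30.5 FPKM in WT, KO and KI MEF. At day 0 the sums were 138, 7.66 and 141 FPKM, so KO was the lowest at both stages. At days 4 to 7 they were 1135 to 3403 in WT and 1499 to 1871 in KI. KO had 14.1 at day 4 and 30.5 to 63.3 at days 6 and 7. The 7 trophoblast markers, a lineage also making Krt7, Krt8 and Krt18, summed to 19.2 to 63.8 FPKM in KO at days 6 and 7. In every other library up to day 7 their sum was at most 5.74 FPKM. These markers differed from each other in KO, where 4 of the 7 had at least 1 FPKM at day 6 and 6 at day 7. Elf5, Hand1 and Tfap2c made up most of both sums. Cdx2 was at 0.218 and 0.904 FPKM on these days. Gata3, at 2.73 and 1.41 FPKM, lay between its KO values of day 4 (0.922 FPKM) and MEF (4.73 FPKM). The 7 pluripotent markers summed to 177 to 650 FPKM in KO at days 6 and 7, to 5.52 to 52.0 in WT at days 4 to 7 and to 2787 to 3735 in iPSC, where the keratin sum was far lower than in KO at day 7. Fibroblast markers summed to 15540 to 22529 in late WT, 21880 to 25334 in late KI and 5099 to 8275 in KO at days 6 and 7. The part of these cell types in the keratin levels was not tested.

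Genes that work with keratins moved in the same comparison. In the late change of KI against KO 8.67% of all genes were called lower and 2.59% higher, and the counts here are to be read beside those shares. They rest on the same fit as the keratin calls, whose number over all genes fell to between 7 and 74 when MEF, day 0, day 6 or day 7 was left out. In it 4 of the 14 tested linkers of desmosomes and hemidesmosomes fell and 0 rose, with a list median of -2.38. Itgb4, the integrin that anchors keratin to the basement membrane, was at -5.89 ± 1.14 (adjusted p = 0.0349), and Pkp1, a desmosomal plakophilin, at -4.43 ± 0.94 (adjusted p = 0.0365). Of 10 tested regulators of keratin genes 2 fell and 0 rose (median -2.11): Ehf, an ETS factor of epithelia, at -4.79 ± 0.84 (adjusted p = 0.0335), and Klf4, itself a gene of the cassette, at -1.84 ± 0.34 (adjusted p = 0.0346). Of 4 tested keratinocyte markers 3 fell, Krtdap at -7.80 ± 0.94 (adjusted p = 0.0213) and Lgals7 at -7.49 ± 1.32 (adjusted p = 0.0335) the furthest, of 6 epithelial markers Cdh1 alone, at -5.51 ± 1.11 (adjusted p = 0.0352), and of 6 mesothelial markers 3, Msln at -7.00 ± 1.09 (adjusted p = 0.0303) and Upk3b at -3.13 ± 0.72 (adjusted p = 0.0405) among them. In the other direction 4 of 7 macrophage markers rose, Lyz2 by 3.80 ± 0.99 (adjusted p = 0.0479) and Emr1 by 3.71 ± 0.83 (adjusted p = 0.0395) the furthest, and 2 of 7 fibroblast markers, the collagens Col1a2 by 2.07 ± 0.54 (adjusted p = 0.0482) and Col1a1 by 1.93 ± 0.52 (adjusted p = 0.0498). Of 4 tested trophoblast and 6 tested pluripotent markers 0 were called. The same lists gave 0 calls in the late changes of KO and of KI against WT.

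The linkers and regulators were also tested between stages. At day 4 against day 0, where 10% of all genes were called lower and 12.3% higher, 2 of 14 linkers fell, Pkp2 at -2.204 ± 0.40 (adjusted p = 0.00267) and Plec (plectin) at -0.84 ± 0.21 (adjusted p = 0.0155), and 0 rose. Of 13 regulators Klf4 rose by 1.55, while Klf5 fell by 1.89 and Gata3 fell by 1.58. Both lists were thus near the share of all genes. In iPSC against MEF 20.5% of all genes were called higher and 21.4% lower. Of 14 linkers 1 rose there, Dsg2, a desmosomal cadherin, by 3.32 ± 0.78 (adjusted p = 0.00567), and 2 fell, Pkp2 (-2.17) and Plec (-1.81). Of 13 regulators 5 rose, among them Klf5 by 2.95 ± 0.53 (adjusted p = 0.00113) and the epithelial factor Elf3 by 3.22 ± 0.84 (adjusted p = 0.00963). Gata3 alone of the regulators fell, by 1.92 ± 0.29 (adjusted p = 0.00032).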

How the data were processed

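Libraries were made from poly(A)+ RNA with a stranded dUTP kit, per the labels' protocols. The submitters' processing notes name Cufflinks 2.2.1, TopHat2 2.0.10 with Bowtie 1.0.0, SAMtools 0.1.16, FastQC and the builds GRCm38 and mm10. Which annotation was used is unknown here. The authors deposited FPKM per gene in 1 table. Of its 38756 lines, 41 that repeat 19 gene IDs were summed, which left 38734 genes. Values were tested as log2(FPKM + 1) with limma 3.58.1 in R 4.3.3 (2-sided, trended variance, Benjamini-Hochberg adjustment over all genes with a mean of at least 1 FPKM). Stage comparisons used all 17 libraries with genotype as a term (14240 genes). Genotype comparisons and late changes used the 15 libraries without iPSC (13837 genes), with stage as a term. P-values therefore rest on the spread of genotype differences between stages, not on replicate cultures. The scripts were tested on simulated data first. Figures and sums used Python 3.11.15 with pandas 2.3.3 and matplotlib 3.10.9. The text names every keratin that reached 5 FPKM or was called, and from other lists the 2 largest called changes each way, or fewer. The keratins, lists and tests were chosen with earlier results of these data known. Alternatives were a pseudocount of 0.1, no filter or a mean of 5 FPKM, quantile or upper-quartile scaling, no genotype term, and leaving out each genotype or stage, the 3 WT libraries of low Ddx3y or the late KI libraries.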

Additional observations from a re-analysis of the deposited data

Results flagged for a closer look

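The difference between KI and KO in MEF and day 0 was not the difference between them at days 4, 6 and 7 for 6 keratins, by a test of that change itself (limma, adjusted p under 0.05 over all genes). The late change of KI against KO was -8.07 for Krt8, -6.63 for Krt14 and -6.13 for Krt17. It was -5.28 for Krt13, -5.24 for Krt16 and -3.76 for Krt80, all on the log2(FPKM + 1) scale. Part of the reads of Krt8, Krt14, Krt16 and Krt17 could belong to copies with shared sequence, while Krt13 and Krt80 share none. All 6 calls were lost when the libraries of MEF, of day 0, of day 6 or of day 7 were left out. Pou5f1 was at most 0.851 FPKM in the late KI libraries, so the miR-203 transgene and the lack of factor RNA cannot be told apart there.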

How the results depend on the processing

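Refits of the 27 results on single keratins under the alternatives gave 293 values. Of these, 227 kept direction and side of the threshold, 53 lost the call, 13 gained it and 0 reversed. The 6 late calls of KI against KO became 0 without the filter on low values and 0 to 10 when a stage was left out, and 7 with a pseudocount of 0.1. For the late change of KO against WT the 0 became 4 without the 3 WT libraries of low Ddx3y (MEF, day 4 and iPSC), and 0 to 10 when a stage was left out. For KI against WT that range was 0 to 3. At day 4 against day 0 the 0 became 1 (lower) with a pseudocount of 0.1, 4 (higher) without the late KI libraries and 0 to 2 when a genotype was left out (2 lower without KO, 2 higher without KI). For day 7 against MEF these were 1 (higher), 5 (higher) and 0 to 3 (3 lower without KO). For iPSC against day 7 the 3 became 0 without those 3 WT libraries, 6 without the late KI libraries, 1 without genotype as a term and 0 to 1 when a genotype was left out. For iPSC against MEF they became 1 without those WT libraries and 0 to 4 when a genotype was left out. With at least 1 FPKM in place of 5, KI was lower than WT at day 6 in 5 of 8 keratins, against 3 of 3. The cause of these changes was not tested. In the late change of KI against KO 77% of all calls were lower as deposited and 51.7% after quantile normalization, and the median of all genes moved from -0.27 to 0.03 with upper-quartile scaling, while the keratin calls were 5 or 6 in each. No paired analysis was possible because the labels give no shared replicate numbers, and the genotype or stage term of each fit is the only block. With read depth unknown, values listed at 0 have no upper limit.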

Other observations

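Vim (vimentin), the filament protein of fibroblasts, was at 3068, 3052 and 3004 FPKM in WT, KO and KI MEF, at 1317, 1183 and 844 FPKM at day 4, at 857, 936 and 795 FPKM at day 7, and at 341 and 207 FPKM in WT and KO iPSC. The 3 genotypes thus lay close together in MEF, KI was the lowest of them at days 4 and 7, and the iPSC values were the lowest of all. At day 6 WT and KI were level, at 863 and 867 FPKM, with KO at 1079 FPKM. At day 4 against day 0, Vim fell by 1.42 ± 0.20 (limma, adjusted p = 0.00059). Of 8 tested filament genes outside the keratins 3 fell there and 0 rose, where 1426 of 14240 genes were called lower, the others being Des (desmin, of muscle) by 2.91 ± 0.50 (adjusted p = 0.0020) and Nes (nestin, of progenitor cells) by 2.27 ± 0.61 (adjusted p = 0.0206). The same 3 fell between MEF and day 7, where 1507 of 14240 genes did. In iPSC against MEF 5 of 8 fell (3042 of 14240 genes), with Nes at -3.65 ± 0.69 and Vim at -3.58 ± 0.23 (both called), and Lmnb2, a lamin of the nucleus, rose by 1.43 ± 0.46 (adjusted p = 0.026). In the late change of KI against KO 2 of 8 fell (1199 of 13837 genes), Nefl, a neurofilament, by 4.31 ± 0.82 (adjusted p = 0.0347) and Lmnb1, a lamin, by 2.90 ± 0.67 (adjusted p = 0.0409). The summed FPKM of all 16 listed filament genes was 922 to 998 in late KI and 1273 to 1399 in KO at days 6 and 7. In WT it was 1002 and 1003 FPKM at days 6 and 7, close to late KI. Keratin RNA was at 4.83 to 5.25 FPKM in late KI. At days 6 and 7 it was at 799 to 1504 FPKM in KO and at 32.2 and 82.5 FPKM in WT.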
